A study of Mus musculus with 16 samples.

Results

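The genes described here encode 10 sensors of viral or misplaced nucleic acids and the proteins next to them: Ddx58, Ifih1, Dhx58, Mavs, Tlr3, Eif2ak2, Adar, Zbp1, Cgas and Sting1. They were chosen by gene symbol, with earlier results of these data known, out of 15653 genes listed in at least 1 of 3 expression tables. All 10 were listed in the TDM culture table and in the TDMa tumour table, and 9 in the TDMa culture table, where Zbp1 was not listed and is not analysed here. After a minimum mean normalised count of 10, the numbers tested were 9, 9 and 10, because Zbp1 fell below that minimum in TDM culture.

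The 16 RNA sequencing libraries came from mouse B16F10 melanoma, a pigment cell tumour line, in the form of 2 derivatives, B16F10-TDM and B16F10-TDMa. Cells of either derivative had received, by transduction, a scramble guide RNA (sgScramble) or one directed at Nlrc5 (sgNlrc5). Cultured cells were sequenced in 2 libraries for each derivative and guide, and TDMa tumours in 4 libraries for each guide. Every group therefore carried a guide in a B16F10 derivative, and the control for each sgNlrc5 group was the same line with sgScramble. The title of the series speaks of demethylating and activating NLRC5, a regulator of MHC class I genes. The labels do not spell out TDM or TDMa, what effector each line carries, whether a line is 1 clone, or the host mice of the tumours. Nothing in them tells whether the replicates came from different cultures or animals, so the p-values measure the spread between these libraries, which may be technical.

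RIG-I (gene Ddx58) and MDA5 (Ifih1) bind double-stranded or otherwise unusual RNA in the cytosol and pass the signal to MAVS on mitochondria, which leads to type I interferon. cGAS (Cgas) binds DNA in the cytosol and makes a cyclic dinucleotide that activates STING (Sting1). Several of these sensors are themselves interferon-stimulated genes, so that interferon raises the amount of the sensors that can trigger it.

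Nlrc5 itself had normalised counts of 22.9 and 12.7 with sgScramble and 57.4 and 78.6 with sgNlrc5 in TDM culture. In TDMa culture it had 254 and 242 with sgScramble, and 3146 and 3142 with sgNlrc5. In tumours it had 837, 257, 559 and 656 with sgScramble, and 4381, 3434, 3655 and 4195 with sgNlrc5. Nlrc5 was thus higher with its guide in every table, with log2 differences of 1.91, 3.66 and 2.88. A normalised count here is a read count divided by the size factor of its library. Recovered depth was 12183889 to 16390886 reads per library over the listed genes.

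Where the RefSeq promoter table (GRCm38.p6) held an entry, the stretch around the transcript start was searched for the letters of 2 elements that interferon-activated factors bind. Entries were found for 7 of the 9 genes looked up, and Sting1 was not searched. The core of the interferon-stimulated response element, searched on both strands as GAAA, any 2 bases and GAAA, was present in the windows of 3 genes, Ddx58, Ifih1 and Eif2ak2. The same letters were present for 3.99% of 27025 genes with a window of that length. The windows of Mavs, Tlr3, Adar and Cgas held no exact match, and near matches were not counted. Of the Mavs window, which held no match, only a part before the transcript is given. The stretches below show this part and where the 3 matches lie. They run 5′ to 3′ on the strand of the gene, all GRCm38.p6, and capitals mark the match.
Ddx58, chr4:40239814-40239975, minus strand, ending 12 bases into the transcript: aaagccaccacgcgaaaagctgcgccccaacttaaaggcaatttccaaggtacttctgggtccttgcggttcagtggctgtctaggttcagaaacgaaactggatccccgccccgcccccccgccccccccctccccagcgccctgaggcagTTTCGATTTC
Eif2ak2, chr17:78882545-78882722, minus strand, ending 28 bases into the transcript: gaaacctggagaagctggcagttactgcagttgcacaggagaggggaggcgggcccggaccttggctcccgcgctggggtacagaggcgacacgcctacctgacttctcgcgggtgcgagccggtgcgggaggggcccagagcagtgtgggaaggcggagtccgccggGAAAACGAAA
Ifih1, chr2:62646214-62646243, minus strand, within the start of the transcript: aaagtctggagaagagaatcGAAACAGAAA
Mavs, chr2:131233913-131234062, plus strand, the 150 bases before the transcript: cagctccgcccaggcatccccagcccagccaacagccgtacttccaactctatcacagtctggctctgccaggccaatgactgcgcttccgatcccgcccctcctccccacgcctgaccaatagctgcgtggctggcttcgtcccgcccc
The match began 3 bases into the transcript in Ddx58, 19 in Eif2ak2 and 33 in Ifih1. The gamma-activated site, searched as TTC, any 3 bases and GAA, which reads the same on both strands, was found for Eif2ak2, 178 bases before the start, and in the window of 1 of the starts of Adar, 23 bases after it. These letters were present for 9.55% of genes. A match of letters is a description of the window, not evidence of a bound site, and binding was not measured here.

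The guide against Nlrc5 went with different patterns of the RNA sensors in the 3 tables. In TDM culture none of the 9 sensor genes tested passed, as against 0.517% of all genes. In TDMa culture 7 of 9 fell, among them all 3 RIG-I-like receptors, and Mavs rose, where 16.9% of all genes fell and 17.3% rose. In tumours of the same line 6 of 10 rose and Cgas fell, where 19.7% of all genes rose and 19.7% fell. The plot of values by library shows each of these libraries.

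**Figure D1:**
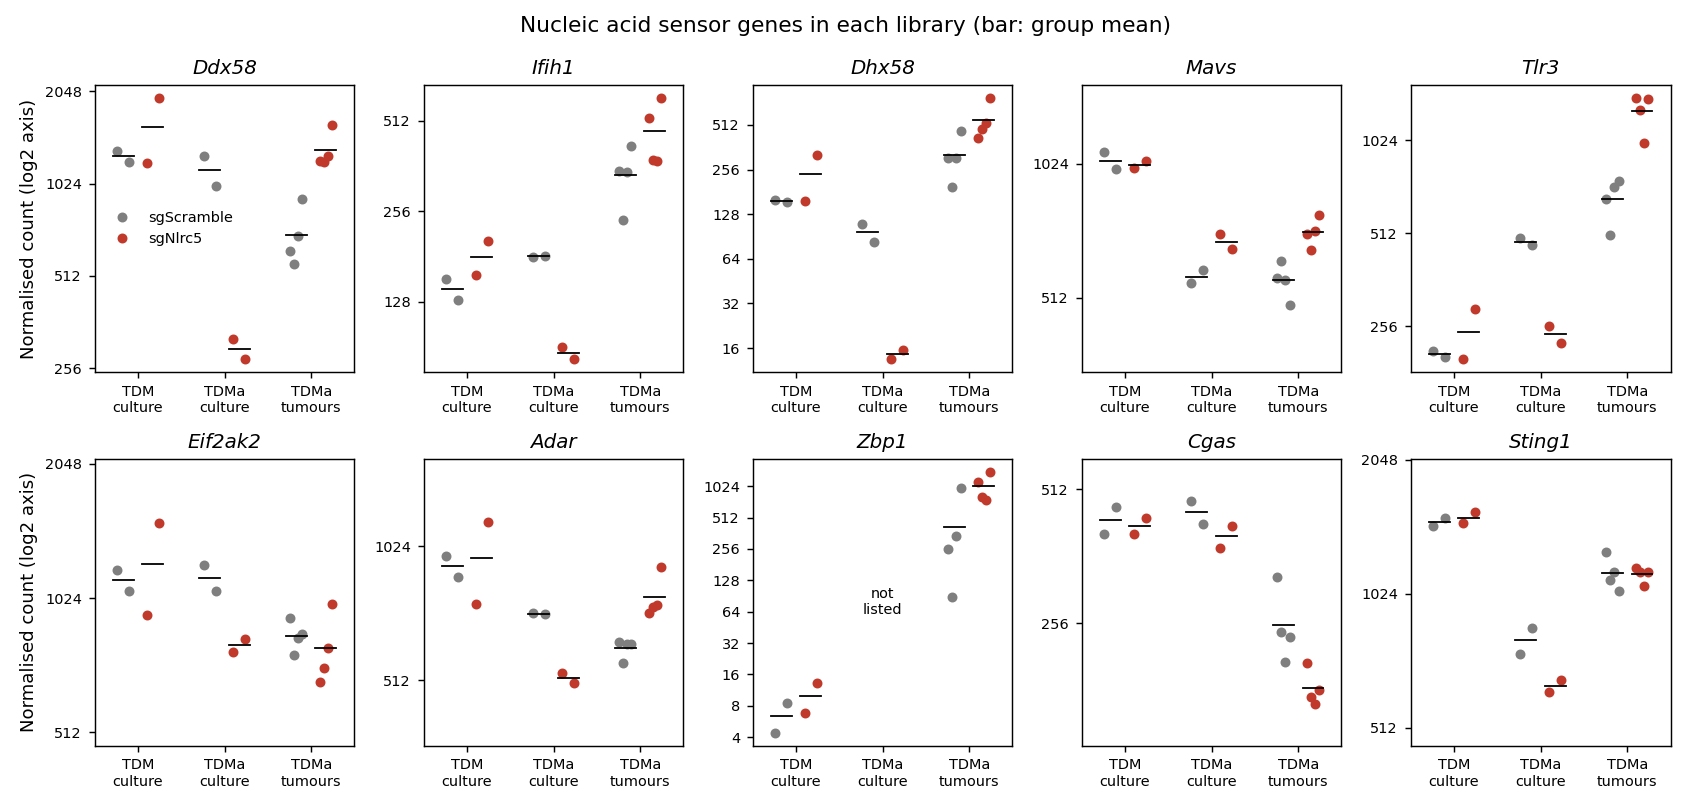
Normalised count of each sensor gene in every library, on a log2 axis whose range differs by gene, with sgScramble in grey, sgNlrc5 in red and a bar at the mean of each group. Ddx58, Ifih1, Dhx58 and Tlr3 are below their controls in TDMa culture, and Ddx58 and Tlr3 are above all controls in tumours, while Sting1 overlaps in TDM culture and in tumours.

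In TDM culture the RIG-I-like receptors differed between the 2 sgNlrc5 libraries more than between guides. Ddx58, which encodes RIG-I, had normalised counts of 1309 and 1207 with sgScramble and 1196 and 1949 with sgNlrc5. Dhx58 encodes LGP2, a relative of RIG-I that lacks the signalling domains and tunes the other receptors, and it had 159 and 155 against 156 and 323. Ifih1 had 153 and 129 against 157 and 204. In the first 2 genes 1 sgNlrc5 library lay at the controls and the other above, and Ifih1 was the 1 gene of the 9 whose groups did not overlap, as 38.7% of all genes tested also did not.

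The effectors of double-stranded RNA showed the same split between libraries. Eif2ak2 encodes PKR, the kinase that shuts down translation on binding double-stranded RNA, and it had 1185 and 1061 with sgScramble and 937 and 1510.5 with sgNlrc5. Adar encodes the editing enzyme that turns adenosine to inosine in double-stranded RNA and so keeps cellular RNA from being sensed; it had 971 and 873 against 760.4 and 1160.1. Tlr3, the receptor for double-stranded RNA in endosomes, had 213 and 204 against 200.2 and 291. In these 3 genes the sgNlrc5 libraries lay on both sides of the controls.

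The adaptor Mavs and the DNA arm lay close together with both guides. Mavs had 1088 and 995 with sgScramble and 999.98 and 1039.8 with sgNlrc5. Cgas had 406 and 468 against 406 and 441, and Sting1 had 1453 and 1516 against 1476 and 1559. For all 3 genes the groups overlapped. Zbp1, a sensor of left-handed Z-form nucleic acids that can start necroptosis, had few reads, with 4.41 and 8.49 against 6.75 and 13.3.

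By limma across all genes of TDM culture, 0 of 9 sensor genes passed an adjusted p of 0.05, as against 0.517% of all genes tested. At an unadjusted p under 0.05, which 9.04% of all genes reached, there was 1, Dhx58, with a log2 difference of 0.52 ± 0.23 (SE, n = 2 per guide, limma adjusted p = 0.52), and limma voom on recovered reads called 0. The 95% interval of Sting1 was -0.09 to 0.16 and that of Mavs -0.18 to 0.12 on the log2 scale. For Adar, whose difference was the smallest (0.03), the interval was wider, at -0.24 to 0.30. All 10 sensor genes were higher in sgNlrc5 replicate 2 than in replicate 1, by 1.04 to 2.07 times, while 50.2% of all genes tested were. Without sgNlrc5 replicate 1, Ddx58 (log2 0.63, limma adjusted p = 1.1e-04), Dhx58 (1.04, 0.0032) and Eif2ak2 (0.43, 0.010) passed as higher, and Ddx58 passed also without sgScramble replicate 1 (0.34, 0.030). Without sgNlrc5 replicate 2, the log2 differences of Ddx58, Dhx58, Eif2ak2, Adar, Tlr3 and Sting1 were -0.07, -0.0041, -0.26, -0.28, -0.06 and -0.0079. The direction of these 6 genes thus rests on that library, and that of Adar also on sgScramble replicate 2, without which it was -0.048. Ifih1 stayed higher with any 1 library left out, at 0.16 to 0.53, and passed in none of these fits.

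In TDMa culture the 3 RIG-I-like receptors fell, Dhx58 and Ddx58 furthest of the sensor genes and Ifih1 about as far as Tlr3. Ddx58 went from 1257 and 1005 with sgScramble to 318 and 274 with sgNlrc5. Dhx58 went from 110.0 and 83.7 to 13.5 and 15.5, and Ifih1 from 181 and 182 to 89.9 and 82.3. The groups of all 3 receptors were well apart, with each sgNlrc5 library below 0.5 times its control mean. By limma, Dhx58 fell by 2.65 ± 0.29 on the log2 scale (SE, n = 2 per guide, adjusted p = 8.4e-07), Ddx58 fell by 1.92 ± 0.098 (2.7e-11) and Ifih1 fell by 1.07 ± 0.16 (4.2e-05).

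Their shared adaptor moved the other way. Mavs had 552 and 591 with sgScramble and 712 and 659 with sgNlrc5, a log2 difference of 0.26 ± 0.075 (limma adjusted p = 0.010). Both sgNlrc5 libraries were above both controls. The call ended when replicate 1 of sgScramble (0.21, adjusted p = 0.13) or of sgNlrc5 (0.21, 0.11) was left out, and in a fit that had no intensity trend in the variances (0.11).

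Tlr3, which senses double-stranded RNA inside endosomes rather than in the cytosol, fell with the cytosolic receptors. It had 493 and 468 with sgScramble and 256 and 226 with sgNlrc5, and fell by 0.99 ± 0.10 on the log2 scale (limma adjusted p = 4.0e-07). Eif2ak2 had 1216 and 1061 against 776 and 830.3, and fell by 0.50 ± 0.068 (1.4e-05). Adar had 723 and 719 against 532 and 506, and fell by 0.48 ± 0.072 (4.3e-05). For the PKR and ADAR genes the fall was smaller than for the receptors, and the groups stayed apart. The call of Eif2ak2 was lost without the intensity trend (adjusted p = 0.057).

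In the DNA arm only small differences were measured. Sting1 had 750.0 and 859.9 with sgScramble and 616 and 656 with sgNlrc5, and fell by 0.34 ± 0.075 on the log2 scale (limma adjusted p = 0.0017). This call ended in a fit that had no intensity trend (adjusted p = 0.10) and when sgScramble replicate 2 was left out (-0.24, 0.086). Cgas had 482 and 428 against 379 and 423. Its groups were apart by a few counts, and its log2 difference of -0.18 ± 0.094 did not pass (limma adjusted p = 0.15, 95% interval -0.38 to 0.02).

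In all, 7 of 9 sensor genes fell and 1 rose in TDMa culture, where 16.9% of all genes tested fell and 17.3% rose. Groups did not overlap for any of the 9, with 8 lower and 1 higher, as against 33.0% and 33.3% of all genes. The median log2 difference of the 9 was -0.50, beside a median of -0.0006 over all genes. The calls of Ddx58, Ifih1, Dhx58, Tlr3 and Adar stood under each of the 12 alternatives run. With 1 library left out, an arm holds 1 library, whose spread is then taken to be like that of the others.

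**Figure D2:**
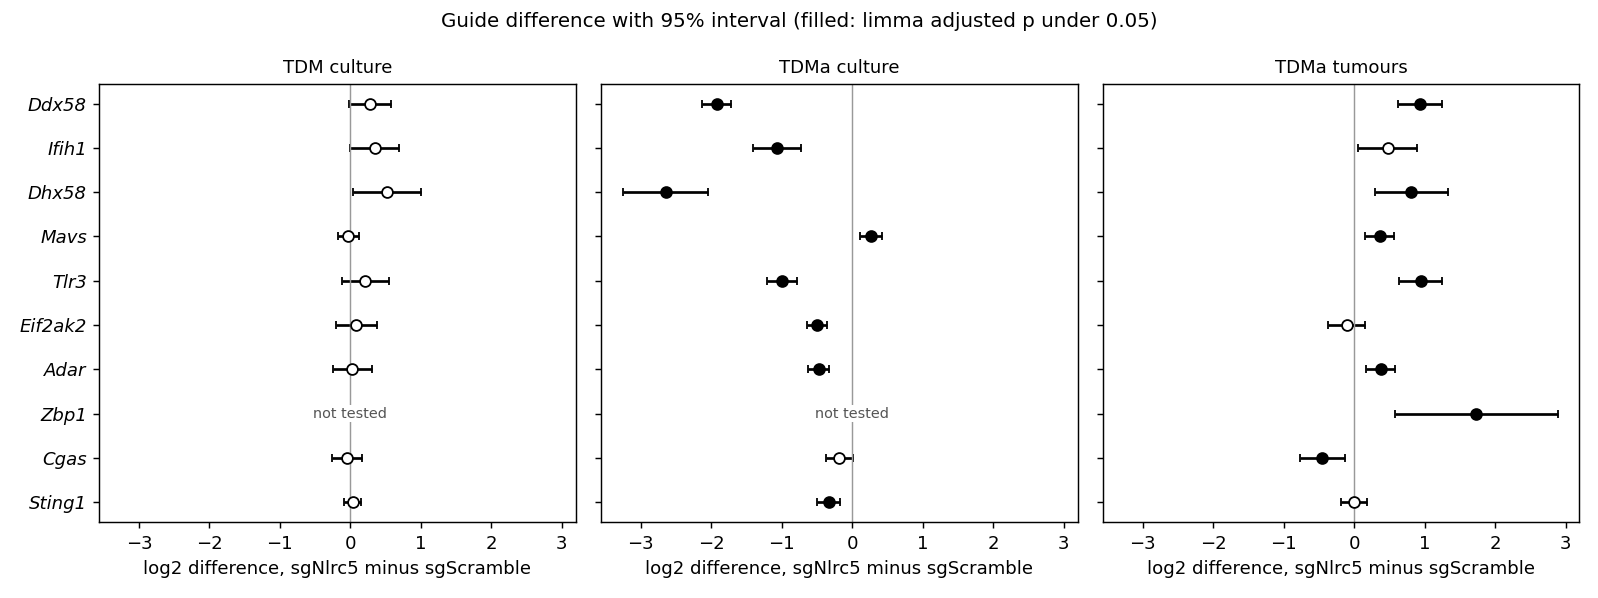
Log2 difference, sgNlrc5 minus sgScramble, of each sensor gene in TDM culture, TDMa culture and TDMa tumours, with 95% intervals from limma and filled points where the adjusted p is under 0.05. Ddx58 lies at 0.28, -1.92 and 0.94 in the 3 panels, and Zbp1 was tested in tumours only.

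In tumours of the TDMa line Ddx58, Dhx58 and Tlr3 rose with sgNlrc5, and Ifih1 did not pass. Ddx58 had 618, 560.5, 693 and 911 with sgScramble and 1218, 1208, 1259 and 1591 with sgNlrc5, and rose by a log2 difference of 0.94 ± 0.14 (SE, n = 4 per guide, limma adjusted p = 5.1e-04). Tlr3 had 663, 505, 722 and 757 against 1405, 1280.5, 1007 and 1389, with the same difference of 0.94 ± 0.14 (4.1e-04). In both genes every sgNlrc5 tumour was above every control. A bulk tumour sample mixes cancer cells with host cells, so more cells of a type and more RNA per cell cannot be told apart.

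Dhx58 had 307, 197, 308 and 465 with sgScramble and 420.2, 479, 526 and 779 with sgNlrc5. It rose by 0.81 ± 0.24 on the log2 scale (limma adjusted p = 0.019), with groups that overlapped at 1 control tumour, and the call ended without sgNlrc5 replicate 4 (0.63, adjusted p = 0.053) or without the intensity trend (0.052). Ifih1 had 349, 239, 347 and 423 against 525, 381, 377 and 611. Its log2 difference of 0.48 ± 0.19 did not pass (limma adjusted p = 0.067), but it passed with quantile normalisation (0.51, 0.048) and when sgScramble replicate 4 (0.59, 0.036) or sgNlrc5 replicate 3 (0.58, 0.038) was left out.

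Mavs had 569, 621, 563 and 494 with sgScramble and 712, 656, 722 and 788 with sgNlrc5. It rose by 0.36 ± 0.097 (limma adjusted p = 0.012), without overlap, and was thus higher with sgNlrc5 both in culture and in tumours of TDMa. Adar had 623, 559, 617 and 618 against 724, 746, 757 and 920.3. It rose by 0.37 ± 0.096 (0.0091), again without overlap. Eif2ak2, in contrast, had 922, 762, 834 and 851 against 665, 714, 789 and 991, and its difference of -0.11 ± 0.12 did not pass (0.52, 95% interval -0.37 to 0.16).

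Zbp1 had the largest log2 difference of the 10 in tumours and the widest spread. It had 259, 88.8, 343 and 983 with sgScramble and 1116, 809.7, 750.5 and 1412 with sgNlrc5. The difference was 1.73 ± 0.53 (limma adjusted p = 0.022), although 1 control tumour lay above 2 of the sgNlrc5 tumours. The call ended without sgScramble replicate 1 (1.67, adjusted p = 0.055), without sgNlrc5 replicate 4 (1.56, 0.058) or without the intensity trend (0.064).

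Cgas was the 1 sensor gene that fell in tumours. It had 325, 244, 209.8 and 238 with sgScramble and 209, 175, 169 and 182 with sgNlrc5, and fell by 0.45 ± 0.15 on the log2 scale (limma adjusted p = 0.027). The highest sgNlrc5 tumour lay just below the lowest control. The call ended without sgScramble replicate 1 (-0.33, adjusted p = 0.076) or replicate 2 (-0.47, 0.051), and without sgNlrc5 replicate 2 (-0.43, 0.064), 3 (-0.42, 0.057) or 4 (-0.45, 0.055). Sting1, which acts downstream of Cgas, had 1269.8, 1097, 1145 and 1041 against 1171, 1143, 1068 and 1146, a log2 difference of -0.0047 ± 0.083 (adjusted p = 0.97) with a 95% interval of -0.19 to 0.18.

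In all, 6 of 10 sensor genes rose and 1 fell in tumours, where 19.7% of all genes tested rose and 19.7% fell. Groups did not overlap for 4 genes that were higher and 1 that was lower, as against 18.1% and 19.1% of all genes. The median log2 difference of the 10 was 0.43, beside -0.01 over all genes. Ddx58, Mavs, Adar and Tlr3 kept their call under each of the 16 alternatives run.

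Markers of several white blood cell types were higher in the same tumours, where 19.7% of all genes tested rose and 19.7% fell. All 8 macrophage markers rose, and their summed normalised count was 4265 to 6701 with sgScramble and 14561 to 20565 with sgNlrc5. All 8 T cell markers rose as well, with sums of 57.3 to 74.6 against 283 to 1079. With such low sgScramble sums, not all 8 could average 10 in that group. At least 1 was thus tested only because the sgNlrc5 tumours were high, and the count is a description. All 4 pan-leukocyte markers rose too, with 507 to 1168 against 2091 to 3537. Of 3 dendritic cell markers tested 1 rose and 2 did not pass. The 1 B cell marker tested did not pass either. The 2 NK cell markers and the 1 neutrophil marker tested rose. The sums of the NK cell markers were 11.5 to 39.7 with sgScramble and 54.2 to 149 with sgNlrc5. Whether each averaged 10 with sgScramble cannot be seen from such low sums, and this count is a description too. Of 8 melanocyte markers 3 rose and 1 fell, with sums of 589087 to 661403 against 632224 to 1005774. The part of these cells in the rise of Ddx58, Dhx58, Tlr3, Zbp1, Mavs and Adar was not tested. In TDMa culture, where the receptors fell, 2 of 8 macrophage markers, 0 of 8 T cell markers and 1 of 4 pan-leukocyte markers were listed. The summed count of the 2 macrophage markers was 754 to 809 with sgScramble and 1034 to 1077 with sgNlrc5, and 1 of them rose while the other fell. All 8 melanocyte markers were listed there, of which 7 rose and 0 fell, where 17.3% of all genes tested rose and 16.9% fell. Their sums were 155624 to 157377 with sgScramble and 214547 to 215527 with sgNlrc5. The part of this difference in the fall of the receptors was not tested.

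The guide differences were then compared between tables. Each table had been normalised on its own, and a scale common to a table cancels in such a difference of differences. The guide difference in TDMa culture differed from that in TDM culture for 8 of 9 sensor genes. It was lower for 7 and higher for 1, where 10.8% and 12.0% of all genes were called lower and higher. The limma difference was -3.17 ± 0.35 for Dhx58 (adjusted p = 1.5e-07), -2.20 ± 0.18 for Ddx58 (8.6e-10), -1.41 ± 0.23 for Ifih1 (5.5e-05) and -1.21 ± 0.19 for Tlr3 (3.2e-05). These 4 calls stood under each of the 16 alternatives run, including those without either sgNlrc5 library of TDM culture.

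The other differences between the lines were smaller and less stable. Eif2ak2 differed by -0.59 ± 0.16 (limma adjusted p = 0.011), Adar by -0.50 ± 0.15 (0.019), Sting1 by -0.37 ± 0.098 (0.0070) and Mavs by 0.29 ± 0.10 (0.042), while Cgas did not pass (-0.14, 0.54). Without sgNlrc5 replicate 2 of TDM culture, Eif2ak2 came to -0.24 (adjusted p = 0.11) and Adar to -0.20 (0.23). Of the 16 alternatives, 5 ended the call of Eif2ak2, 6 that of Adar, 3 that of Sting1 and 8 that of Mavs. The libraries whose removal did so were, for Eif2ak2, sgScramble replicate 2 and sgNlrc5 replicate 2 of TDM, and sgScramble replicate 1 and sgNlrc5 replicate 1 of TDMa. For Adar they were sgScramble replicate 2 and sgNlrc5 replicate 2 of TDM, and both sgScramble libraries and sgNlrc5 replicate 2 of TDMa. For Sting1 they were sgScramble replicate 1 of TDM and sgScramble replicate 2 of TDMa, and for Mavs replicate 1 of either guide in either line.

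Between tumours and culture of the TDMa line, the guide differences of 6 of 9 sensor genes differed. All 6 guide differences were higher in tumours, as were those of 15.0% of all genes. By limma the difference was 3.46 ± 0.31 for Dhx58 (adjusted p = 6.0e-07), 2.86 ± 0.20 for Ddx58 (4.4e-08), 1.94 ± 0.17 for Tlr3 (5.7e-07), 1.54 ± 0.23 for Ifih1 (7.9e-05) and 0.85 ± 0.12 for Adar (4.1e-05). The receptor genes thus had the largest differences, and these 5 calls stood under each of the 20 alternatives run. Sting1 differed by 0.33 ± 0.12 (0.037) and lost its call under 9 of the 20. Those were the fit without the intensity trend and the removal of sgScramble replicate 2 or sgNlrc5 replicate 1 in culture, or of sgScramble replicate 2, 3 or 4 or sgNlrc5 replicate 1, 2 or 4 in tumours.

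Eif2ak2 fell in culture and did not pass in tumours, and the difference itself was 0.39 ± 0.15 (limma adjusted p = 0.052), which passed under 8 of the 20 alternatives. Among these were the removal of sgScramble replicate 2 of the culture (0.49, adjusted p = 0.033), of sgScramble replicate 1 (0.44, 0.047) and of sgNlrc5 replicate 1 (0.47, 0.020) or replicate 2 (0.44, 0.046) of the tumours. Mavs rose in both settings, with a difference of 0.10 ± 0.12 between them (0.57, 95% interval -0.16 to 0.36). Cgas did not pass either (-0.27, 0.26). No sensor gene had a lower guide difference in tumours by this test, as against 21.6% of all genes, with 0 also at an unadjusted p under 0.05 and 0 with limma voom.

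**Figure D3:**
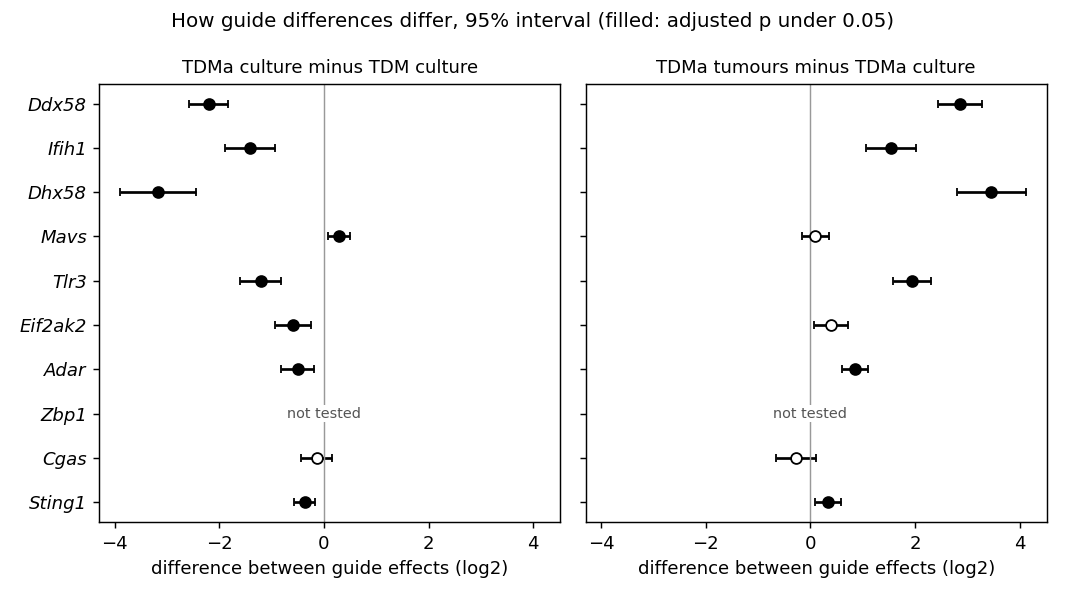
Difference between guide effects (log2), TDMa culture minus TDM culture on the left and TDMa tumours minus TDMa culture on the right, with 95% intervals from limma and filled points where the adjusted p is under 0.05. Dhx58 has the largest value in both panels, -3.17 and 3.46, and Cgas passes in neither.

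Levels of different genes were compared as normalised counts per kilobase of exon, with exon lengths from GENCODE vM21. Sting1 was the highest of the sensor genes in each of the 6 groups, from 232 ± 10.3 (SD, n = 2) in TDMa culture with sgNlrc5 to 554 ± 21.4 (n = 2) in TDM culture with sgNlrc5. In TDMa culture with sgScramble the order was Sting1, Eif2ak2, Mavs, Ddx58, Cgas, Tlr3, Adar, Dhx58 and Ifih1, and Mavs and Ddx58 overlapped. With sgNlrc5 it was Sting1, Mavs, Eif2ak2, Cgas, Adar, Tlr3, Ddx58, Ifih1 and Dhx58, where Tlr3 and Ddx58 overlapped. Ddx58 thus went from the fourth place of 9, at 160.4 per kilobase, to the seventh, at 42.0, and Dhx58 ended at 4.43, the lowest.

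In tumours with sgScramble the order was Sting1, Mavs, Eif2ak2, Tlr3, Zbp1, Ddx58, Dhx58, Adar, Cgas and Ifih1. There the ranges of neighbours overlapped except between Sting1 and Mavs and between Eif2ak2 and Tlr3. With sgNlrc5 it was Sting1, Zbp1, Tlr3, Mavs, Ddx58, Dhx58, Eif2ak2, Adar, Ifih1 and Cgas. There neighbours overlapped except between Eif2ak2 and Adar and between Adar and Ifih1. In TDM culture with sgScramble the order was Sting1, Mavs, Eif2ak2, Ddx58, Adar, Cgas, Dhx58, Tlr3, Ifih1 and Zbp1, and Adar and Cgas were the neighbours that overlapped. With sgNlrc5 in TDM culture the order was the same, and neighbours overlapped between Eif2ak2 and Ddx58 and from Adar through Tlr3. Zbp1 was at 1.83 and 2.83 per kilobase in TDM culture and at 119 and 289.6 in tumours, values that stand side by side from separately normalised tables and were not tested.

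**Figure D4:**
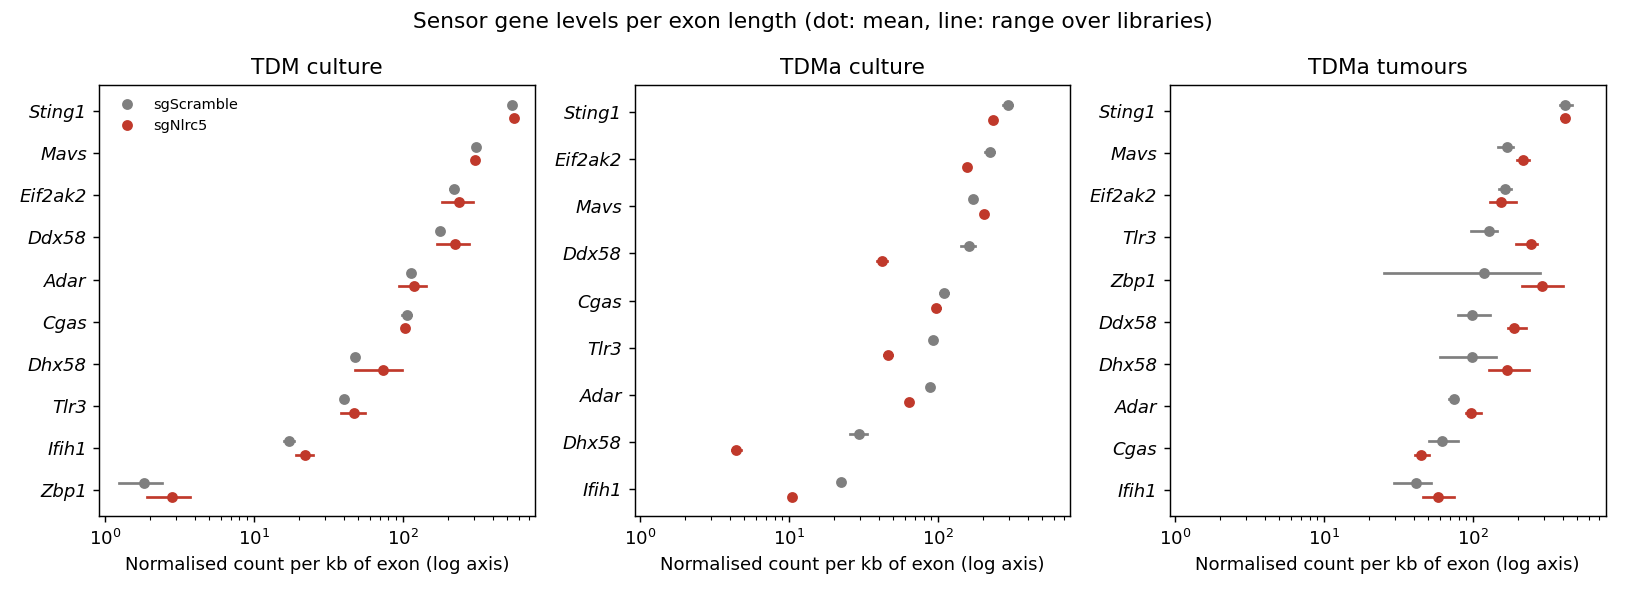
Normalised count per kilobase of exon, on a log axis, for each sensor gene in the 3 tables, sorted by the sgScramble mean, with dots for means and lines for the range over libraries. Sting1 is the highest in each panel, and Zbp1 lies at 1.83 in TDM culture and at 119 in tumours with sgScramble.

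The genes around the sensors were grouped in lists by function. In TDM culture 0 of 83 such genes tested passed by limma, and 3 of the 83 reached an unadjusted p under 0.05, which 9.04% of all genes did. None of the 28 genes named from the lists in that table was called by limma voom either.

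The list counts for TDMa culture stand beside 16.9% of all genes that fell there and 17.3% that rose. Of 12 adaptors, kinases and factors 1 fell and 1 rose, shares below those of all genes. Irf7, the interferon-induced transcription factor that amplifies interferon production, fell by 1.98 ± 0.33 on the log2 scale. It lost its call without sgScramble replicate 1 (-1.49) and without the intensity trend. Ticam1, which carries the signal of TLR3, rose by 0.22 ± 0.080 but lost its call when any of the 4 libraries was left out, and the other 10 did not pass. Among 9 cofactors and regulators of the RIG-I-like receptors 6 fell and 1 rose. Rnf135, a ubiquitin ligase that activates RIG-I, fell by 1.71 ± 0.19 (limma adjusted p = 1.1e-06).

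Antiviral effectors and part of the interferon signal genes also fell there. Of 8 genes for 2-5A synthetases and RNase L, the enzymes that make and use the 2-5A messenger to degrade RNA, 6 fell. For 4 of the 6, Oas1a, Oas1b, Oas1c and Oas2, the sgNlrc5 mean was under 10, so they were tested only because the sgScramble group was high, and the count is a description. Oas1a went from a mean of 157 to 8.86 and fell by 3.95 ± 0.31 (limma adjusted p = 1.1e-08), and Oasl2 fell by 2.27 ± 0.35 (5.0e-05). Oas2 rested on 41 reads with sgScramble against 1 with sgNlrc5, a ratio of 0.027 with a 95% exact interval of 0.00066 to 0.16, which covers counting error only, and no call is read from it. Of 13 interferon receptor and signal genes 5 fell and 0 rose. They included Usp18, a negative regulator of interferon receptor signalling, which fell by 2.68 ± 0.24 (8.3e-08), and Irf9, a transcription factor of the interferon response, which fell by 1.63 ± 0.16 (1.6e-07). None of the 21 interferon genes searched for was listed in TDMa culture.

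In the remaining lists genes passed in both directions. Of 15 other nucleic acid sensors 3 rose, a share near that of all genes, and 1 fell. Of 10 genes for nucleic acid disposal 4 rose and 2 fell, and of 13 partners of ZBP1 and PKR 3 rose and 4 fell. Eif2ak4, another eIF2α kinase besides PKR, rose by 0.40 ± 0.074 (limma adjusted p = 3.0e-04). Of the 26 genes called among those named from the lists, 15 lost their call under at least 1 alternative, Irf7 and Ticam1 among them, while Rnf135, Oasl2, Usp18, Irf9 and Eif2ak4 did not.

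In tumours, where 19.7% of all genes rose and 19.7% fell, most genes that passed in the adaptor, cofactor, 2-5A and interferon signal lists rose. Of 14 adaptors, kinases and factors 7 rose and 0 fell, with Irf7 at a log2 difference of 1.64 ± 0.30 (limma adjusted p = 0.0013) and Myd88, the adaptor of most Toll-like receptors, at 0.61 ± 0.15 (0.0082). Of 12 receptor cofactors 4 rose and 1 fell, and Trim25, the ligase classically tied to RIG-I, rose by 0.99 ± 0.21 (0.0038). Of 10 2-5A genes 7 rose and 1 fell, with a median of 1.23, and Oas1a, which fell in culture, rose by 0.93 ± 0.16 (9.4e-04). Of 13 interferon receptor and signal genes 9 rose and 0 fell, Usp18 by 1.35 ± 0.23 (9.9e-04).

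Of 26 other sensors tested in tumours, 11 rose and 10 fell, both shares above the 19.7% of all genes in either direction. Among the 11 was Nlrc3, with a mean of 9.82 with sgScramble and 25.4 with sgNlrc5. It met the minimum only through the sgNlrc5 tumours, so the count of 11 is a description. Tlr7, an endosomal receptor for single-stranded RNA, rose by 1.67 ± 0.25 (limma adjusted p = 4.2e-04), and Unc93b1, which carries TLR3 and TLR7 to endosomes, rose by 1.88 ± 0.23 (1.1e-04). Tlr7 was not listed in either culture table. Of 14 partners of ZBP1 and PKR 2 rose and 3 fell, and of 11 disposal genes 3 rose and 2 fell, numbers near the shares over all genes. Ripk3, the necroptosis kinase that binds ZBP1, rose by 1.52 ± 0.37 (0.0069), and Eif2s1, the eIF2α substrate of PKR, fell by 0.45 ± 0.093 (0.0028). Ifng, with a mean of 5.50 with sgScramble and 16.1 with sgNlrc5, was the 1 interferon gene tested. It met the minimum only through the sgNlrc5 tumours, so no difference is read from it. The macrophage, T cell and pan-leukocyte markers given above also rose in these tumours, and their part was not tested.

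**Figure D5:**
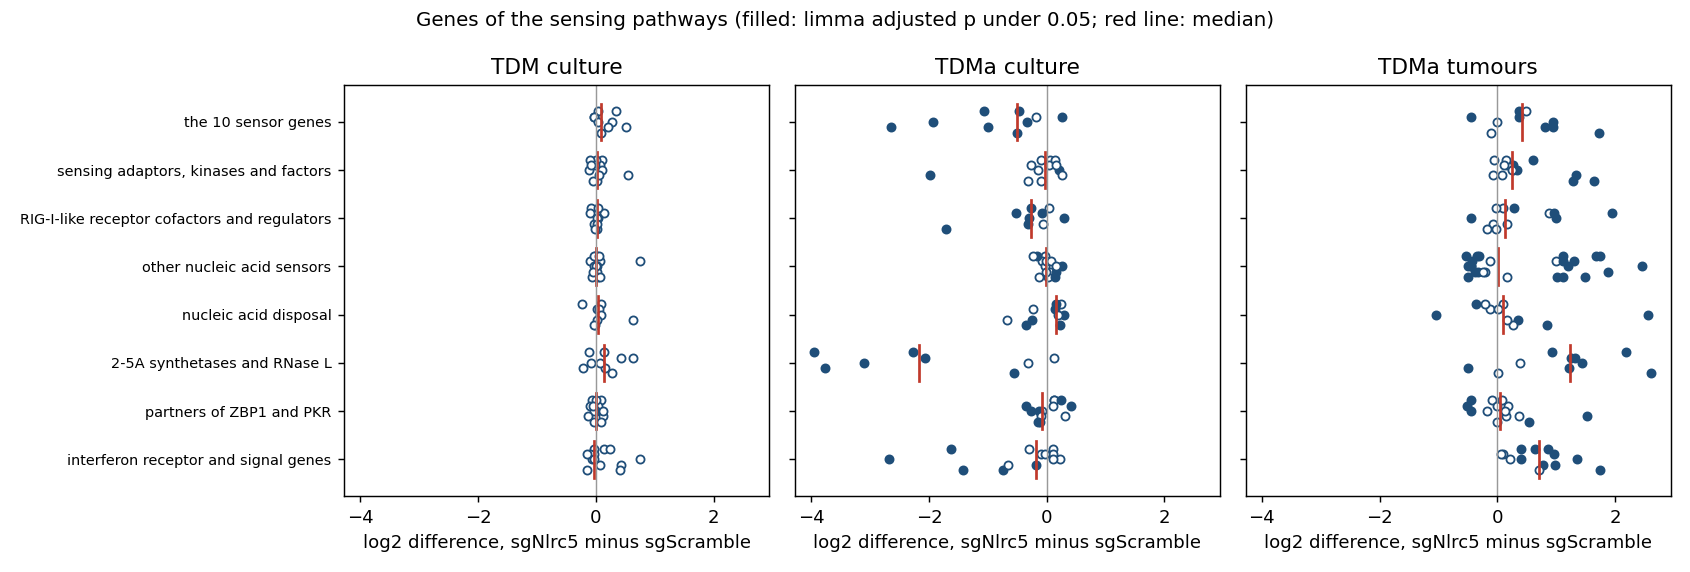
Log2 difference, sgNlrc5 minus sgScramble, of the sensor genes and of each gene in 7 pathway lists, for the 3 tables, with filled points where the limma adjusted p is under 0.05 and a red line at the median of a list. The interferon receptor and signal list has its median at -0.18 in TDMa culture and at 0.70 in tumours.

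The genes whose guide differences lay closest to those of Ddx58, by Euclidean distance over the 3 log2 differences among 11334 genes tested in each table, were Isg15, Parp9, Lgals3bp, Irgm1 and Ifi47, at distances of 0.18, 0.20, 0.25, 0.26 and 0.32. Isg15 encodes a ubiquitin-like protein, and it had log2 differences of 0.39 in TDM culture, -2.06 in TDMa culture and 0.94 in tumours. Among the sensor genes Dhx58 was the nearest to Ddx58, at rank 45, with Tlr3 at 74 and Ifih1 at 82. Adar followed at 480, Eif2ak2 at 947 and Sting1 at 1325, and Cgas and Mavs stood at 6037 and 6539.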

How the data were processed

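The deposited values were log2(normalised count + 1) for each gene and library, in 1 table each for TDM culture, TDMa culture and TDMa tumours, per the file headers and the labels. STAR 2.7.10a, FastQC 0.12.0 and DESeq2 1.36.0 are named in the submitters' processing notes, which do not say what each did, along with GRCm39 and mm39 as builds. The kit keeps strand, per the labels' protocols. How reads were counted, against which annotation and with which strand setting, was not given in the sources used here, so reads from overlapping or antisense genes could not be told apart.

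After the log2 scale was undone, genes whose normalised counts averaged 10 or more were kept, 11989, 12138 and 13385 of 13143, 13284 and 14933 listed. The fit, separate for each table, was limma 3.58.1 in R 4.3.3 on the values as deposited, with an intensity trend, two-sided, Benjamini-Hochberg over all genes tested and a threshold of 0.05. The added 1 makes changes of low genes look smaller. Errors of log2 differences are standard errors. Differences between tables were limma interaction terms with array weights. Low values were whole multiples of 1 step per library: within a tolerance of 0.1 read, 100% of the values of up to 2000 reads were whole. Depth and the reads for limma voom came from these steps.

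The labels give no batch. Alternatives covered the filter, the pseudocount, the variance trend, scaling between libraries, voom, the replicate number as a block and leaving out each library. The code was tested on simulated data with the same spread for all genes and tables. Real tumour libraries differed from each other more than culture libraries did, so that test does not cover the spread of tumours. The members and lists were chosen with earlier results of these data known. Genes named were the 10 sensors, Nlrc5, examples from the up to 4 genes per list with the smallest p, and the 5 genes most like Ddx58. Promoter sequences are from RefSeq (GRCm38.p6), and promoters on 1 chromosome were left out of the background share.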

Additional observations from a re-analysis of the deposited data

Results flagged for a closer look

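Each of the 10 sensor genes was screened in the tumours of either guide, at the lowest and the highest library. In 3 of these groups of 4 tumours, 1 library stood apart from the others. The gap was beyond the 95% limit of Dixon's test, which chance passes in about 1 in 20 groups. Adar was low in sgScramble replicate 2, at a normalised count of 559, where the other 3 lay at 617 to 623. Adar was also high in sgNlrc5 replicate 4, at 920.3, where the others lay at 724 to 757, and Ddx58 was high in the same tumour, at 1591 against 1208 to 1259.

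The guide differences of 8 sensor genes differed between the cultured lines by the test of the difference itself. These were -3.17 for Dhx58, -2.20 for Ddx58, -1.41 for Ifih1, -1.21 for Tlr3, -0.59 for Eif2ak2, -0.50 for Adar, -0.37 for Sting1 and 0.29 for Mavs, as TDMa culture minus TDM culture on the log2 scale. Those of 6 differed between tumours and culture of TDMa, by 3.46 for Dhx58, 2.86 for Ddx58, 1.94 for Tlr3, 1.54 for Ifih1, 0.85 for Adar and 0.33 for Sting1.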

How the results depend on the processing

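Correlations of libraries with the same replicate number were -0.06 in TDM culture, 0.02 in TDMa culture and -0.26 to 0.15 in tumours. With 2 libraries per guide this check gives 1 value per culture table, so it cannot decide there whether the numbers pair the libraries. With the replicate number as a block, 122 genes passed in TDM culture, 4433 in TDMa culture and 4533 in tumours, Ifih1 passed in tumours (0.48, limma adjusted p = 0.017), and Mavs lost its call between the lines, leaving 0 sensor genes higher. No other sensor call within a table changed with the block.

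With limma voom on recovered reads, 59, 4256 and 5259 genes passed in TDM culture, TDMa culture and tumours, beside 62, 4156 and 5268 in the fit as reported. Without the intensity trend 2 genes passed in TDM culture. In TDMa culture 1581 did, with 0 sensor genes higher. Between the lines 1186 did, beside 2610, with 0 sensor genes higher and 4 lower. Sensor genes higher between the lines were also 0 with quantile normalisation and 0 with equal sums. Equal sums moved the share of higher calls in TDMa culture from 50.5% to 38.8%. The cause of these changes was not tested.

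Leaving out 1 library at a time, genes passing ranged from 62 to 146 in TDM culture, 2512 to 3335 in TDMa culture, 4336 to 5370 in tumours, 1779 to 2723 between the lines and 3633 to 4443 between tumours and culture. Sensor genes called higher ranged from 0 to 3 in TDM culture, 0 to 1 in TDMa culture, 4 to 7 in tumours, 0 to 1 between the lines and 5 to 7 between tumours and culture. Those called lower ranged from 6 to 7 in TDMa culture, 0 to 1 in tumours and 5 to 7 between the lines.

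Signs turned in TDM culture, where no gene named here passed except Nlrc5. With 1 library left out at a time, the log2 differences there ran from -0.072 to 0.632 for Ddx58, -0.0041 to 1.038 for Dhx58, -0.094 to 0.035 for Mavs, -0.055 to 0.481 for Tlr3, -0.258 to 0.430 for Eif2ak2, -0.276 to 0.333 for Adar, -0.144 to 0.061 for Cgas and -0.0079 to 0.071 for Sting1. Among the pathway genes they ran from -0.038 to 1.119 for Irf7, -0.180 to 0.0059 for Cyld, -0.344 to 0.138 for Trim56, -0.0100 to 0.071 for Pcbp1, -0.086 to 0.027 for Pcbp2, -0.036 to 0.206 for Rnaseh2a, -0.309 to 1.175 for Oasl2 and -0.056 to 0.345 for Oas1a. The lowest values of Ddx58, Dhx58, Tlr3, Eif2ak2, Adar and Sting1 were those without sgNlrc5 replicate 2. Quantile normalisation gave -0.0051 for Pcbp1 in TDM culture and 0.033 for Sting1 in tumours, where Sting1 ran from -0.046 to 0.049 over the libraries left out. Nlrc5 lost its call in TDM culture without the intensity trend (1.91) and without sgNlrc5 replicate 2 (1.69).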
